A study of Mus musculus with 12 samples.

Results

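The MHC-linked receptors are the odorant receptor genes whose symbols run from Olfr90 to Olfr139, with pseudogene symbols ending in -ps left out. The rule took them by name alone and used no measured value. It found 46 of the 1,107 Olfr genes without -ps, in a table of 44,930 genes. In GENCODE M21, which is on the build GRCm38, 45 of the 46 lie on chromosome 17 between 37083871 and 38336643, a stretch of 1.25 Mb with 23 genes on the plus and 22 on the minus strand. The exception is Olfr139, which lies on chromosome 11 (74044033 to 74056551, minus strand), so the rule's number range and the chromosome 17 cluster are not quite the same set.

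Total RNA of the olfactory mucosa, the nasal lining with its sensory neurons, was depleted of ribosomal RNA and made into libraries with a stranded kit. The 6 eB deletion animals lacked 1,155 bp of chromosome 7 (102847692 to 102848846), a piece that the title of the series describes as an enhancer of class I odorant receptors, and the 6 wildtype animals did not. All 12 mice were males, 30 days old (P30), and their strain is given as 129S6;C57BL/6J. The labels do not say from which of these strains each animal had its chromosome 17, whether the deletion was carried on 1 or both copies, or whether animals were littermates. The p-values therefore measure the spread between these samples.

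Odorant receptors are G protein-coupled receptors of the sensory neurons' cilia, and each mature neuron is known to express 1 allele of 1 receptor gene. Receptors fall into the older class I, which in the mouse sits in a single cluster on chromosome 7, and the far more numerous class II, which is spread over most chromosomes. The class II cluster beside the class I region of the major histocompatibility complex is known for its closeness to the H2 genes, for the many alleles it carries in different mouse strains, and for near-identical neighbouring copies. None of its genes lies on the chromosome of the deletion.

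The subfamily names that RefSeq lists as synonyms put 17 of the 46 into MOR256, 9 into MOR218, 7 into MOR263, 5 into MOR156 and 4 into MOR250, with 1 each in MOR121, MOR249 and MOR255, and no such name for Olfr111. The full names of Olfr93 (MOR256-39P), Olfr94 (MOR256-32P), Olfr115 (MOR218-11P) and Olfr138 (MOR256-40P) end in P, while GENCODE lists these genes as protein coding. The rule left out symbols with -ps and did not use these names. The most conserved stretch of an odorant receptor surrounds the DRY motif at the inner end of the third transmembrane helix, which takes part in coupling to the G protein. The coding bases around this motif were found in 45 of the 46 by translating the GENCODE coding sequence. They are printed here for 10 of the receptors described in the results, since they show how closely subfamily members resemble each other. Capitals mark the codons at the position of the DRY motif, all sequences run 5′ to 3′ on the gene's own strand, and the coordinates are GRCm38.
Olfr138 (MOR256, chr17:38275124-38275153, plus strand): atgtcctttGATCGATATgtggctatctgc
Olfr136 (MOR256, chr17:38335510-38335539, plus strand): atgtcctttGATCGATATgtggctatctgc
Olfr123 (MOR256, chr17:37795791-37795820, plus strand): atggctttcGATCGCTATgctgctgtctgc
Olfr124 (MOR256, chr17:37805498-37805527, plus strand): atggcctttGACCGTTTTgctgccatttgc
Olfr131 (MOR256, chr17:38082590-38082619, minus strand): atggcctttGATCGCTATgtggccatctgc
Olfr107 (MOR156, chr17:37405892-37405921, plus strand): atggctattGACCGCTATgctgctatctgc
Olfr99 (MOR156, chr17:37280047-37280076, minus strand): atggctattGACAGGTATgccgctatctgt
Olfr118 (MOR263, chr17:37672394-37672423, plus strand): atggcctttGACCGCTACatggccatatgc
Olfr122 (MOR263, chr17:37772024-37772053, plus strand): atggcttttGACCGCTACatggccatatgc
Olfr110 (MOR249, chr17:37499004-37499033, plus strand): atggcatatGATCGATATattgctatctgt
In this stretch Olfr138 and Olfr136 have the same letters. This is not particular to them, as other sets among the 45 also share all their letters here. Examples are Olfr133, Olfr134 and Olfr135, and Olfr97, Olfr98, Olfr107 and Olfr108.

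Likeness between whole coding sequences ranged widely. Over the 1,035 pairs of the 46 genes the median identity was 55.6%, yet 27 pairs were over 90% and 7 over 95%. These 7 were Olfr110 with Olfr111 (98.1%), Olfr117 with Olfr130 (97.2%), Olfr101 with Olfr102 (96.6%), Olfr119 with Olfr121 (95.5%), Olfr133 with Olfr135 (95.4%), Olfr133 with Olfr134 (95.3%) and Olfr136 with Olfr138 (95.3%). Of the 46 genes, 40 share at least 1 stretch of 50 exonic bases with another annotated gene, and in 19 such stretches make up over 10% of all those of the gene. Olfr98 had the highest share (60.7%, mainly with Olfr97), and Olfr110 shares 31.8% of its stretches with Olfr111. Olfr115 also overlaps Olfr116 and Gm18213 on the same strand. How the authors' counting treated reads that match 2 copies is not given in the sources used here, so the split of reads within these pairs is uncertain. Olfr139 overlaps Olfr399, which is not among the 46, on the same strand too, but 0% of its stretches of 50 exonic bases are shared with another gene.

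RefSeq gave a start window for 36 of the 46, but in 33 of them the annotated start lies at or within 100 bases of the coding start. In Olfr110, Olfr119 and Olfr122 it lies more than 1,000 bases upstream. Of these 3, the window of Olfr110, the receptor with the third highest level per kb of exon here, lies wholly before the gene in GENCODE too. Its 250 bases before the start are shown as sequence upstream of an annotated start (RefSeq, GRCm38.p6, chr17:37492218-37492467, plus strand).
Olfr110: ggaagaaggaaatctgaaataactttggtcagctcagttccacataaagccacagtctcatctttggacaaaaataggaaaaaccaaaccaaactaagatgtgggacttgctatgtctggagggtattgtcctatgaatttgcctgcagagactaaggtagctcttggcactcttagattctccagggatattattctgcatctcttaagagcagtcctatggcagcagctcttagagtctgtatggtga
No base is in capitals because neither motif searched on both strands, the homeodomain core TAATNA or the Ebf core CCCNNGGG, has these letters in the window. Among 32,851 RefSeq windows of the same 250 bases, 24.3% hold the homeodomain core and 11.8% the Ebf core. The windows of Olfr119 and Olfr122, not printed here, hold 2 matches and 1 match of the homeodomain core and 0 of the Ebf core.

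Libraries held 15,466,926 to 23,059,835 reads on genes in eB deletion animals and 13,152,662 to 19,823,345 in wildtype animals. Reads on all Olfr genes made up 0.758% ± 0.045 in eB deletion animals and 0.748% ± 0.060 in wildtype animals (SD, n = 6 each), and the 46 genes together held 4,343 to 6,010 and 3,582 to 5,717 reads per library. Omp, the marker of mature olfactory neurons, averaged 63,297 ± 4,535 normalized counts in eB deletion animals and 64,608 ± 3,979 in wildtype animals (SD, n = 6 each), while 0 of 3 liver markers passed the filter on low values. In these bulk samples fewer cells that chose a receptor and less RNA per cell cannot be told apart. Of the libraries, 4 stood apart in the share of reads on the predicted gene Gm10800, namely eB deletion 4 (2.38%) and eB deletion 1 (0.554%), and wildtype 2 (11.02%) and wildtype 5 (0.329%), against at most 0.00514% in the other 8. Wildtype 2 is one of the animals on which the pattern of Olfr138 below rests.

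The MHC-linked receptors were ordinary members of the repertoire by level. Per kb of exon, the 44 that passed the filter of at least 10 normalized counts in 6 or more animals lay between 7.25 and 176 (mean of 12 animals), with a median of 28.3, against a median of 25.7 over the 844 other class II genes that passed. Ranked by this level among the 1,107 Olfr genes without -ps, 2 of the 46 were in the top 100 and 10 in the upper 25 percent. The upper 50 percent held 26, the lowest 25 percent held 7, and the median rank was 479.

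Olfr124, called MOR256-3 and known in the literature as the broadly tuned receptor SR1, had the highest level of the group. Its normalized counts were 708 at the lowest, 796 at the median and 1,083 at the highest in eB deletion animals, against 680, 820 and 877 in wildtype animals. The groups overlap, with eB deletion 2 highest of all 12. At 176 normalized counts per kb it ranked 15th among the receptors, and its rank in single animals stayed between 11 and 16. It alone supplied 17.6% ± 3.0 of the reads of the 46 genes in eB deletion animals and 16.7% ± 0.82 in wildtype animals (SD, n = 6 each). Its log2 fold change, eB deletion over wildtype on the log2(value + 1) scale as for all that follow, was 0.09 ± 0.10 (SE; limma adjusted p = 0.951).

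Olfr131, the next in level, had 176 normalized counts at the lowest, 200.2 at the median and 251 at the highest in eB deletion animals, against 173, 201 and 286 in wildtype animals. The medians nearly coincide and the ranges overlap over most of their length. Its level of 116 normalized counts per kb gave rank 30, with 18 to 62 in single animals. By mean normalized count, without division by exon length, Olfr131 ranked 146, below Olfr117 at 131. The order given here therefore depends on exon length. Olfr110 (74.2 per kb), Olfr121 (66.5 per kb), Olfr136 (63.7 per kb) and Olfr117 (63.5 per kb) followed at ranks 111, 134, 147 and 149. From Olfr110 to Olfr117, the values of neighbours in this order overlap over animals, and their differences were not tested. The gap between Olfr131 and Olfr110 was wide in rank per kb, as no member ranked between 30 and 111. By mean normalized count other members lay between Olfr131 and Olfr110 (rank 314), such as Olfr107 (rank 215). The lowest animal for Olfr131 (95.9 per kb, wildtype 4) lay above the highest for Olfr110 (94.8 per kb, wildtype 2).

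At the low end, Olfr118 (7.25 per kb, rank 972), Olfr114 (13.1 per kb) and Olfr113 (11.7 per kb) had the fewest normalized counts of those that passed the filter. Olfr98 and Olfr108 did not pass it. Olfr98 had 0 to 6.56 normalized counts in eB deletion animals and 0.93 to 8.04 in wildtype animals. Olfr108 had at most 2 reads per library in eB deletion animals, against 9 reads in wildtype 2 and at most 2 in the other wildtype animals. Both are MOR156 receptors, as are Olfr97, Olfr99 and Olfr107, so the subfamily spans 1.44 to 63.1 normalized counts per kb. MOR256 spans 12.6 to 176 per kb, whereas the 9 MOR218 receptors keep to 11.05 to 39.8 per kb.

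**Figure D1:**
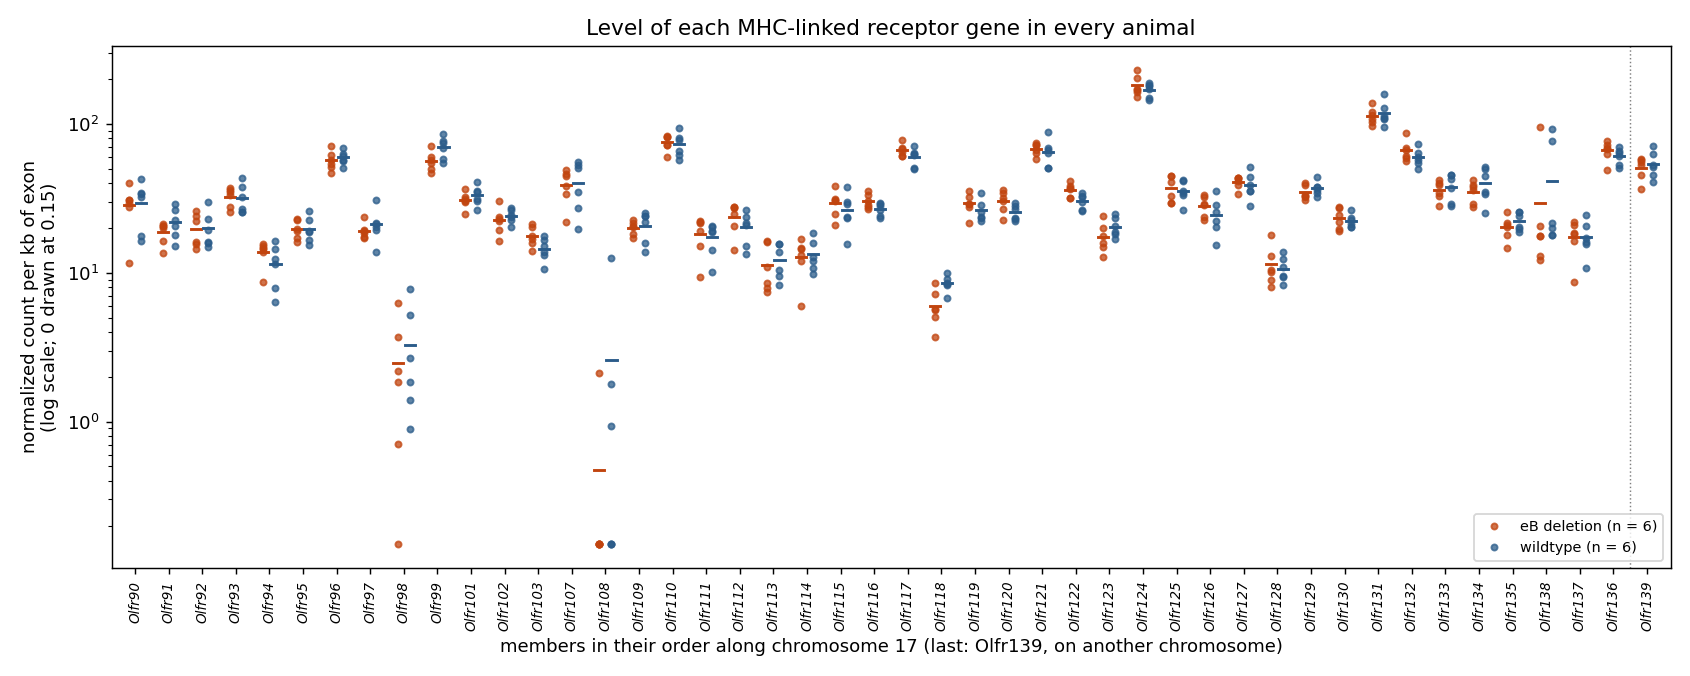
Normalized count per kb of exon (log scale) of each of the 46 receptors in each animal, eB deletion in orange and wildtype in blue, n = 6 each, with bars for group means and the genes in their order along chromosome 17. Olfr124 and Olfr131 stand highest, Olfr98 and Olfr108 lowest, and Olfr138 has 3 animals far above the other 9.

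**Figure D2:**
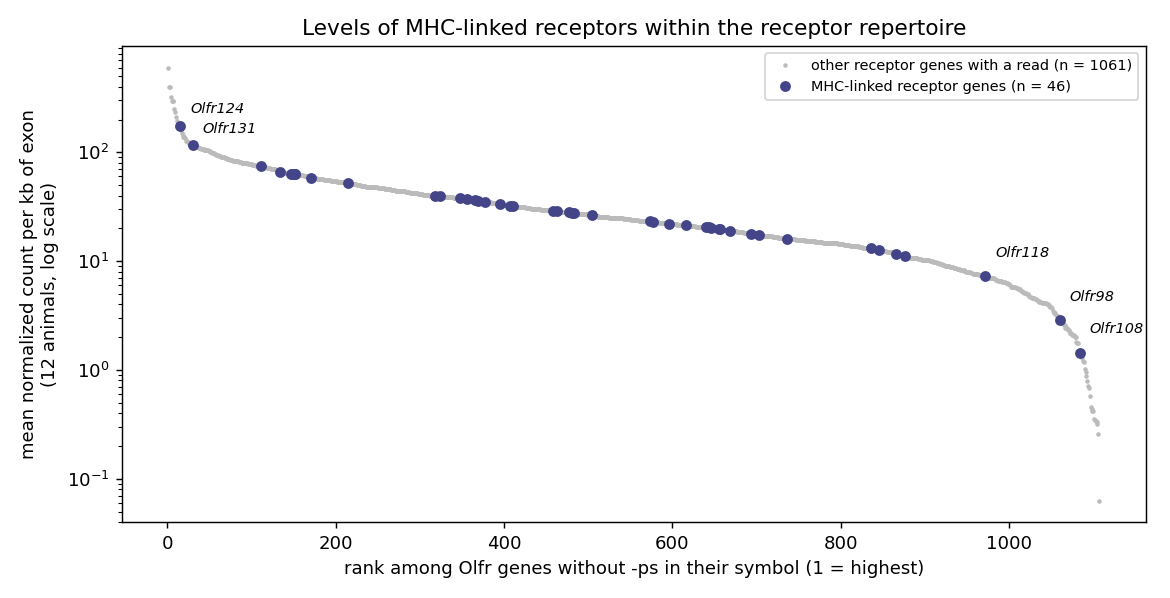
Mean normalized count per kb of exon (log scale, 12 animals) against rank among 1,107 Olfr genes, with the 46 MHC-linked receptors as large points. They run from rank 15 (Olfr124) to rank 1084 (Olfr108), with a median rank of 479.

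The comparison of eB deletion with wildtype animals asks whether these receptors change when the class I enhancer is missing. By limma, 0 of the 44 tested receptors passed an adjusted p of 0.05, where the background over all 19,100 genes tested was also 0%. At an unadjusted p under 0.05, 1 receptor was higher (Olfr122; background 2.83%) and 2 were lower (Olfr118 and Olfr99; background 2.82%), shares near those of all genes. No receptor had groups that did not overlap, where the background was 0.136% for higher and 0.157% for lower. edgeR's quasi-likelihood test on the recovered reads called 0 genes, with 3 of the 44 at an unadjusted p under 0.05. The share over all genes at that unadjusted p is not given here for edgeR, so the count of 3 has no background. DESeq2 called 22 genes, none of them among the 44. In the comparison of the authors' deposited table, none of the 44 receptors (0) passed 0.05, and their lowest adjusted p was 0.999. The share of all genes that passed there is not given here, so this count has no background either.

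The estimates were balanced around 0, and single log2 fold changes ran from -0.54 to 0.29. Of the 44 receptors, 22 lay above 0 (background 51.7%) and 22 below, with a median log2 fold change of -0.0006, beside 0.0038 over all genes tested. The 844 other class II genes had a median of -0.036 (368 above 0 and 476 below), and the 118 class I genes had a median of -0.25 (8 above 0 and 110 below). These medians stand side by side and their differences were not tested.

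Olfr118, a MOR263 receptor and the lowest in level of those tested, had 7.67 normalized counts at the lowest, 11.7 at the median and 17.5 at the highest in eB deletion animals, against 13.9, 17.5 and 20.5 in wildtype animals. All 6 eB deletion animals were below the wildtype mean of 17.5, but eB deletion 1 and 4 reached into the wildtype range. Its log2 fold change was -0.51 ± 0.22 (SE; limma adjusted p = 0.850). Olfr99, a MOR156 receptor, had 83.0, 99.5 and 126 normalized counts at the lowest, median and highest in eB deletion animals, against 96.7, 127 and 151 in wildtype animals. Only eB deletion 4 lay above the wildtype mean, and the groups overlap. The log2 fold change of Olfr99 was -0.29 ± 0.13 (SE; limma adjusted p = 0.874).

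Olfr122, also of MOR263, had 74.6 normalized counts at the lowest, 86.4 at the median and 97.8 at the highest in eB deletion animals, against 61.3, 73.2 and 80.0 in wildtype animals. Every eB deletion animal was above the wildtype mean of 71.0, though eB deletion 3 and 6 lay within the wildtype range. Its log2 fold change was 0.26 ± 0.11 (SE; limma adjusted p = 0.874). Olfr118 and Olfr122 are thus receptors of the same subfamily with estimates of opposite sign. The next in order of p with estimates above 0 were Olfr116 (0.18 ± 0.10), Olfr103 (0.29 ± 0.15), Olfr117 (0.16 ± 0.10) and Olfr120 (0.23 ± 0.14), as log2 fold changes with SE. Those below 0 were Olfr123 (-0.23 ± 0.16), Olfr91 (-0.20 ± 0.16) and Olfr138 (-0.54 ± 0.50), also log2 fold changes with SE. None of these passed the adjusted test.

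By subfamily, 7 of 9 MOR218 receptors had estimates above 0, as had 7 of 17 in MOR256, 4 of 7 in MOR263, 1 of 4 in MOR250 and 1 of the 3 tested in MOR156. The median log2 fold change was 0.085 in MOR218, -0.014 in MOR256, 0.093 in MOR263, -0.063 in MOR250 and -0.11 in MOR156, as a description. Olfr139, the receptor on chromosome 11, had 59.1 normalized counts at the lowest, 88.2 at the median and 93.8 at the highest in eB deletion animals, against 65.8, 84.7 and 115 in wildtype animals. Its log2 fold change was -0.07 ± 0.15 (SE; limma adjusted p = 0.981).

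**Figure D3:**
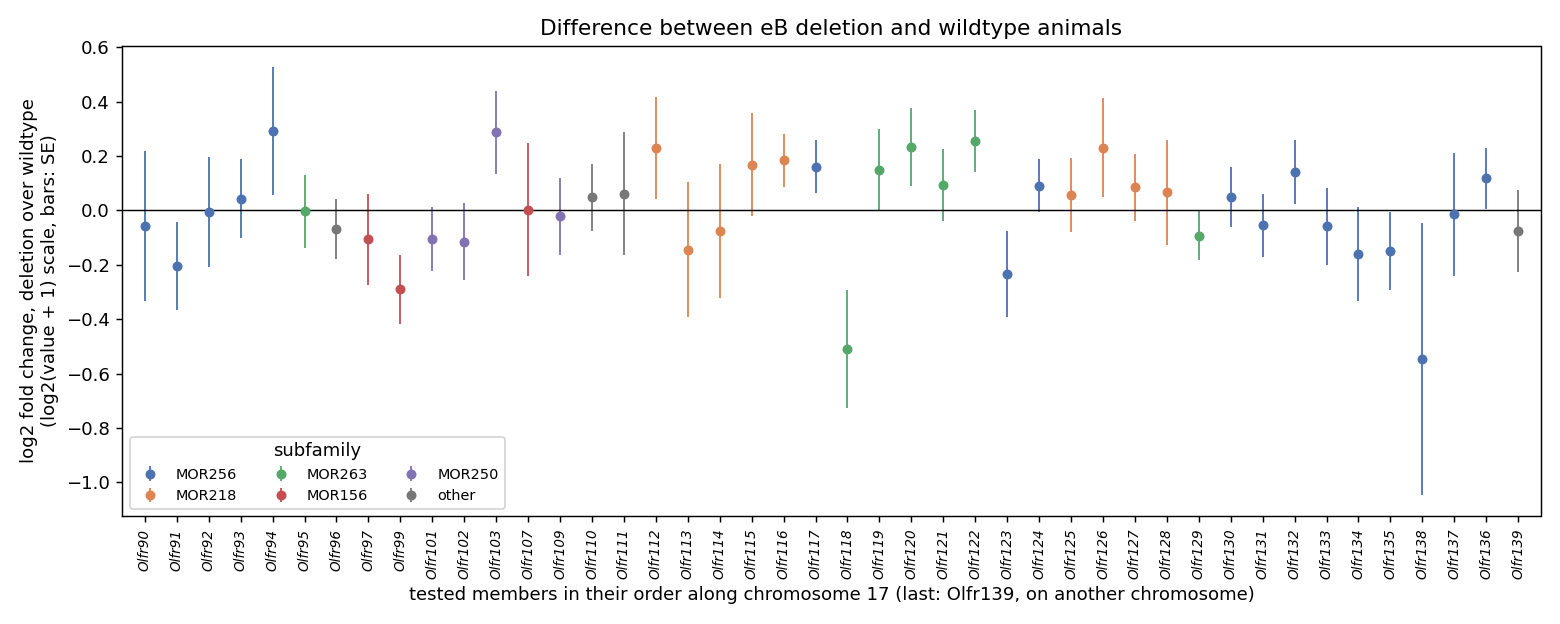
Log2 fold change, eB deletion over wildtype on the log2(value + 1) scale, of each of the 44 tested receptors (points) with its SE (bars), coloured by subfamily and ordered along chromosome 17. There are 22 points above 0 and 22 below, and Olfr138 has the widest bar (SE 0.50).

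The share of odorant receptor reads that fell on the 46 genes was 3.66% ± 0.19 in eB deletion animals and 3.57% ± 0.094 in wildtype animals (SD, n = 6 each). The difference of 0.084 percentage points (SE 0.087) is about the size of its own error. The share is taken over all Olfr genes, including the class I genes, of which 110 tested had estimates below 0 and 8 above. It therefore depends on the reads of those genes as well as on the 46. The share ran from 3.35% to 3.86% with a median of 3.70% in eB deletion animals, and from 3.45% to 3.73% with a median of 3.56% in wildtype animals. The lowest and the highest of all 12 were both eB deletion animals, eB deletion 2 (3.35%, 95% Wilson interval 3.26% to 3.44%) and eB deletion 5 (3.86%, 3.75% to 3.96%), whose intervals do not overlap and cover counting error only. Set against the other class II genes on the log2 scale, the mean of the 44 lay 0.026 ± 0.073 below theirs in eB deletion animals and 0.068 ± 0.070 below in wildtype animals (SD, n = 6 each). With group means removed, the median correlation over pairs was 0.16 for the 44 and 0.21 for the other class II genes, as a description over 12 animals that share depth and composition.

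**Figure D4:**
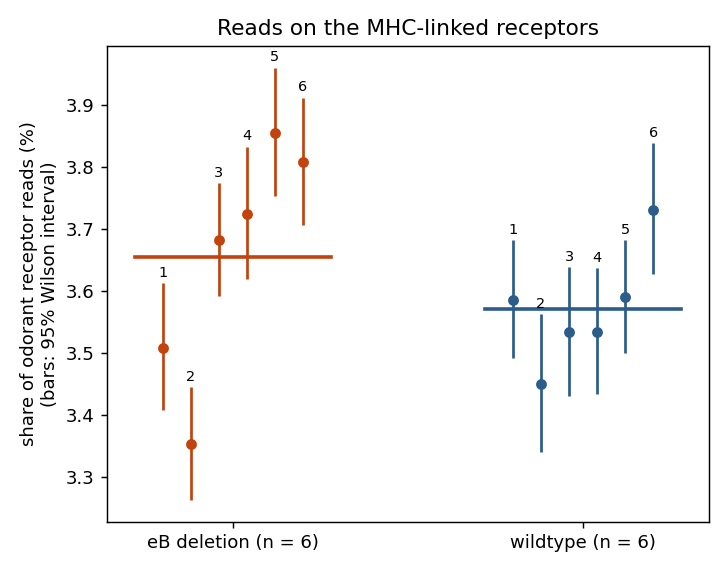
Share of odorant receptor reads on the 46 receptors in each animal, in percent, with 95% Wilson intervals as bars, eB deletion left and wildtype right (n = 6 each, lines at the group means of 3.66% and 3.57%). The eB deletion animals spread from 3.35% to 3.86%, around the narrower wildtype range of 3.45% to 3.73%.

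The largest difference between animals was in Olfr138, and it did not follow genotype. Olfr138 (chr17:38261035-38276410, plus strand, MOR256) had 33.0, 177, 22.9, 24.1, 32.9 and 38.4 normalized counts in eB deletion animals 1 to 6, against 33.4, 173, 143, 33.5, 40.2 and 37.1 in wildtype animals 1 to 6. Thus eB deletion 2, wildtype 2 and wildtype 3 stood apart, and the lowest of them was 3.55 times the highest of the other 9. In reads these were 186, 120 and 148, against 22 to 45 in the others. Its rank among the receptors ran from 74 to 833 over single animals. Its log2 fold change of -0.54 ± 0.50 (SE; limma adjusted p = 0.946) has 1 high animal on the eB deletion side and 2 on the wildtype side. It became -0.27 without these 3 animals, -0.09 without the 2 libraries over 1% Gm10800 and -0.05 without the 4 over 0.1%, and ran from -0.97 without eB deletion 2 to -0.24 without wildtype 2.

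Olfr136, the nearest relative of Olfr138 among the 46 with 95.3% identical coding bases, did not divide the animals so. It had 131 normalized counts at the lowest, 183 at the median and 203 at the highest in eB deletion animals, against 135, 166 and 188 in wildtype animals. Only 3.71% of its stretches of 50 bases are shared with another gene, and 5.48% of those of Olfr138.

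The same 3 animals were set apart in 4 more MHC-linked receptors, in 1 of them upwards and in 3 downwards. Olfr90 had 37.1 normalized counts in eB deletion 2, 56.3 in wildtype 2 and 52.1 in wildtype 3, against 87.9 to 136 in the other 9 animals. Olfr112, a MOR218 receptor, had 67.6, 72.1 and 63.7 in the same animals, against 99.0 to 132 in the others. Olfr107 of MOR156 had 92.3, 114 and 83.0, against 142 to 235. In each of these the 3 animals lie below all others, whichever genotype they carry. Olfr123 went the other way, with 69.5, 67.8 and 72.4 normalized counts in these animals, against 36.8 to 59.4 in the others. These receptors come from 3 subfamilies and lie along the cluster from Olfr90 at its start (37083871 to 37088499) to Olfr138 near its end.

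Counted over all genes, the widest gap in the ordered log2 values separated exactly these 3 animals in 5 of the 44 receptors (11.4%), against 0.157% of all genes tested (30 of 19,100) and 0 of the 844 other class II genes. Of the 30 genes, 10 lie on chromosome 17: the 5 receptors and 5 of the 817 tested genes there that are not among them. In a looser form, with the 3 animals holding the 3 highest or the 3 lowest values whatever the gap, the counts were again 5 of 44 receptors, against 1.24% of all genes (237), 3.30% of the other chromosome 17 genes (27 of 817) and 0.47% of the other class II genes (4 of 844). Both forms were set up after the values of Olfr138 had been seen, and Olfr90, Olfr107 and Olfr112 are described for that reason. Olfr138 itself defined the division, so it meets both forms by construction. It is included in the counts of receptors, of all genes and of the 10 on chromosome 17. The receptors whose match was not fixed in this way are Olfr90, Olfr107, Olfr112 and Olfr123. Olfr138 had the widest gap of the 30 (1.80 on the log2 scale), yet 42 other genes had wider gaps with other divisions of the animals. Next came the noncoding gene RP23-465J20.1 (0.93), also on chromosome 17 at 48730399 to 48738746, with 73.3 normalized counts in eB deletion 2, 67.8 in wildtype 2 and 64.7 in wildtype 3, against 18.8 to 33.4 in the others. The other 39 tested receptors did not divide the animals in this way. Neither strain origin of chromosome 17 nor any other cause of this division was tested, as the labels give no value for it per animal.

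**Figure D5:**
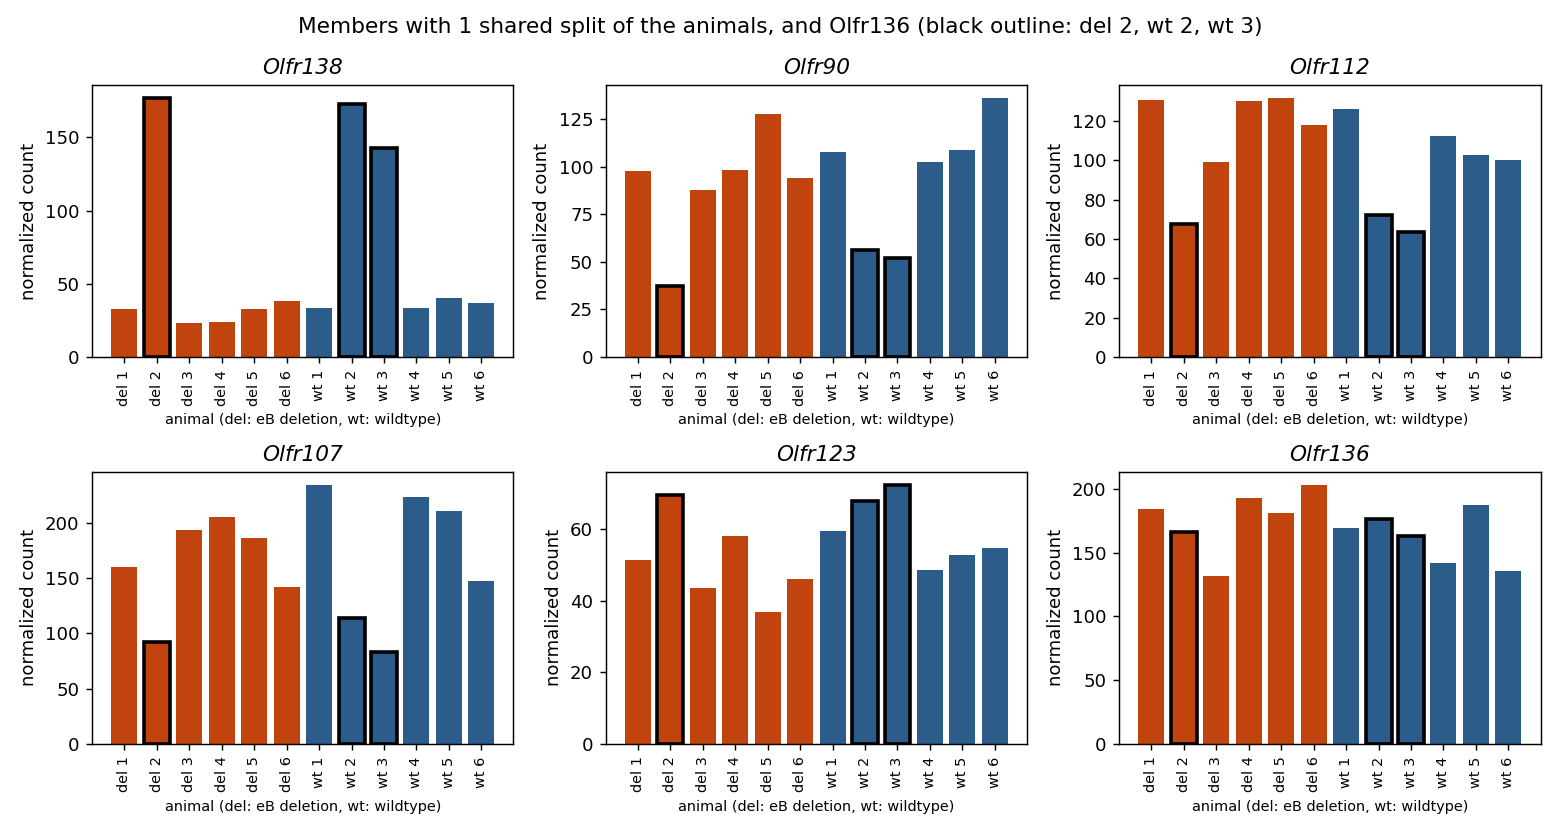
Normalized count per animal (bars, linear scale from 0) of the 5 receptors that set the same 3 animals apart and of Olfr136, eB deletion animals in orange on the left and wildtype in blue on the right. Outlined bars are eB deletion 2, wildtype 2 and wildtype 3, which are high in Olfr138 and Olfr123, low in Olfr90, Olfr112 and Olfr107, and not set apart in Olfr136.

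The neighbours of the cluster and the shared machinery of receptor expression gave no call either, and limma called 0 of all 19,100 genes tested. Of 10 tested genes that are not receptors within 250 kb of the chromosome 17 receptors, 8 had estimates above 0 and 2 below, with 0 past the adjusted test. Gabbr1, the subunit of the GABA-B receptor encoded within the region, averaged 2,932 ± 260 normalized counts in eB deletion animals and 2,892 ± 155 in wildtype animals (SD, n = 6 each; log2 fold change 0.017 ± 0.060 SE, limma adjusted p = 0.990). Of 25 listed genes of the extended MHC class I region that are not receptors, 11 were tested, 8 above 0 and 3 below. Of 17 odor transduction genes, which carry the receptor signal to the ion channels, 11 were above 0 and 6 below. Of 5 genes that bring receptors to the cilia, such as Rtp1 and Rtp2, 4 were above 0 and 1 below, and of 14 genes of receptor choice, such as Ebf1 and Atf5, 9 were above 0 and 5 below. Of 12 mature neuron markers 9 were above 0 and 3 below. In all of these lists 0 genes passed the adjusted test by limma, where the background over all genes tested was also 0%. Over all genes tested, 51.7% had estimates above 0, and the counts above and below 0 in these lists were not tested against that share.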

How the data were processed

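Per the submitters' processing notes, reads were aligned to GRCm38.p6 with STAR 2.6.0 and DESeq2 was used. How reads were counted per gene, with which annotation and strand setting, remains unstated in those notes and in the labels. The deposited signal values, 1 column for each of 12 animals, are normalized counts. All nonzero values (100% at a relative tolerance of 0.001) were whole multiples of 1 read's value, so reads were recovered, edgeR's test on which called 0 genes. The log2 fold changes in the authors' deposited table are shrunken and run wildtype over deletion, with a score (the fold change over its error) and the deposited p-value and adjusted p-value beside it.

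In R 4.3.3, limma 3.58.1 was fitted with a mean-variance trend to log2(value + 1) of the 19,100 genes that reached 10 in 6 animals or more, without covariates, with Benjamini-Hochberg adjustment and a threshold of 0.05. The pseudocount of 1 understates the change of low genes. The script was tested on simulated data. Alternatives were edgeR 4.0.16, DESeq2 1.42.0, other scalings, filters and pseudocounts (0.5 and 5), a replicate block and left-out libraries. DESeq2 was run on the 19,100 genes (22 called) and, as a choice made after seeing that result, on all genes with a read (9 called). GENCODE M21 matched 44,840 genes and left 90 unmatched. Class I genes are Olfr genes between 102 and 106 Mb of chromosome 7.

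Named receptors are the 6 of highest level per kb, the 3 tested of lowest mean, the 5 of smallest p in each direction, those beside the filter, those off chromosome 17 and near-identical pairs. Identity was computed from coding sequence, as protein sequence was not used here. The DRY motif was sought in translated coding sequence as an acidic residue, then arginine, then an alanine after 2 residues of any kind, in a loosened form after a stricter one matched fewer genes. The members and lists were chosen with earlier results of these data known.

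Replicate numbers are shared between groups, but the correlation of same-numbered samples ran from -0.12 to 0.16, so the numbers were not taken as pairs. Libraries of a group differed by at least 14.7 times the sampling variance, so none was counted as deposited more than once. Intervals cover counting error only.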

Additional observations from a re-analysis of the deposited data

Results flagged for a closer look

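The 46 receptors, the share of receptor reads and the mean level against other class II genes were checked in each genotype, 96 groups of 6 animals in all, and in 5 of them 1 animal lay farther from the rest than Dixon's 95% limit allows. Chance flags about 1 in 20 such groups, or 4.8 of 96. Olfr108, which did not pass the filter on low values, gave 2 of the 5: it had 2.19 normalized counts (2 reads) in eB deletion 4, against 0 in the other eB deletion animals, and 12.99 (9 reads) in wildtype 2, against at most 1.85 in the other wildtype animals. These are the 2 libraries over 1% Gm10800. They also had reads on more genes, 39,082 in eB deletion 4 and 42,505 in wildtype 2, against 29,229 to 33,674 in the others. Whether the reads on Olfr108 are particular to this gene was not tested. Olfr138 had 177 normalized counts in eB deletion 2, against 22.9 to 38.4 in the other eB deletion animals, and the animal is among the 3 that stand apart in this gene over both genotypes. Olfr94 had 16.2 normalized counts in eB deletion 3, the lowest of a group that reached 29.6. Olfr97 had 52.5 normalized counts in eB deletion 4, the highest of a group that began at 38.1.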

How the results depend on the processing

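No receptor of the 44 passed an adjusted p of 0.05 in limma or in any alternative run, the lowest adjusted p of a named receptor being 0.68 (DESeq2). Over all genes limma and edgeR called 0, DESeq2 called 22 of the filtered genes and 9 when run on all genes with a read, and limma without wildtype 6 called 1. The second DESeq2 run and the fit without wildtype 2, wildtype 3 and eB deletion 2 were chosen after seeing the data. The median log2 fold change ran from -0.022 to 0.060 when single animals were left out, the difference in the share of receptor reads from 0.044 to 0.145 percentage points, and that in mean log2 level against other class II genes from 0.020 to 0.065. Counts at an unadjusted p under 0.05 (1 higher, 2 lower) were unstable: 0 higher and 1 lower with DESeq2 on either gene set and with the replicate block, 0 to 2 higher and 0 to 2 lower without single animals, 0 higher and 1 lower without wildtype 2, wildtype 3 and eB deletion 2, 0 higher without the 4 libraries over 0.1% Gm10800, 1 lower under scaling to the receptor sum, without a filter and with a filter of 20, and 2 higher over all 52 tested Olfr genes of chromosome 17. The share over all genes at this unadjusted p is given only for the main fit, so the counts of the other fits have no background. The 52 genes are also a wider set than the 44. No receptor's groups failed to overlap, except 1 (Olfr118) without the 4 libraries over 0.1% Gm10800, where fewer animals are compared. The share over all genes in that smaller set is not given here, so this count has no background and is no result about Olfr118. The correlation of same-numbered animals does not pair them, and the replicate block gave 0 calls at the adjusted threshold. Of 522 values of single named receptors, 494 kept their sign and side of the threshold and 28 changed sign, all of receptors whose estimate lay within 0.1 of 0. Leaving out single animals, the range was -0.18 to 0.16 for Olfr107, -0.21 to 0.18 for Olfr90, -0.16 to 0.12 for Olfr114, -0.15 to 0.018 for Olfr139 and -0.015 to 0.13 for Olfr110. Olfr107 (0.0026) became -0.059 with edgeR, -0.051 and -0.050 with DESeq2, -0.0042 with TMM, -0.17 and -0.11 without the 2 and the 4 Gm10800 libraries, -0.19 without the 3 animals, and was below 0 in 7 of the 12 fits without 1 animal. Olfr131 became 0.014 and 0.12 without the 2 and the 4 libraries and 0.031 without wildtype 5. Olfr114 became 0.11 and 0.039 without them, 0.12 without eB deletion 4 and 0.022 without wildtype 4. Olfr90 became 0.18 without eB deletion 2, 0.0019 without wildtype 5 and 0.066 without wildtype 6. Olfr139 became 0.018 without eB deletion 5 and 0.0090 without wildtype 1, Olfr110 -0.015 without wildtype 6, and Olfr124 -0.0038 without the 3 animals. The cause of these changes was not tested. The scalings moved the median of all genes by less than 0.02 on the log2 scale. With Olfr118 at 7.67 to 20.5 normalized counts, depth limits what can be seen in the lowest receptors.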
